A study of Gallus gallus with 12 samples.

Results

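The miRNA miR-218 was followed through its chicken hairpins gga-mir-218-1 and gga-mir-218-2, which are 2 of the 850 hairpin entries in the chicken-aligned table. The rows hsa-mir-218-1 and hsa-mir-218-2, 2 of the 1913 hairpin entries in a table of the same libraries aligned to human hairpins, served as a check. The hairpins were picked by name with their values in all 12 libraries already known. Their levels and differences are therefore a description, and no test was applied to them.

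Small RNA was sequenced from chicken embryos that had received a GFP vector by electroporation and were grown to Hamburger-Hamilton stages HH4-5, when gastrulation is under way. One arm received constructs to remove the chick miR-302 and is called knockdown here, since its samples carry a knocked-down genotype although their titles read KO. The other arm received constructs to raise human miR-302 and is called overexpression. Cells with GFP (GFP+) were sorted apart from those without it (GFP−) in each arm, which gave 4 groups of 3 libraries. All 4 groups come from electroporated embryos, so GFP− cells are sorted neighbours rather than cells of untouched embryos. The number of embryos pooled per library is not stated, and the spread between libraries may be partly technical.

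MicroRNAs are cut from hairpin precursors and guide the silencing of messenger RNAs that match their seed. The genes of miR-218 lie in introns of the SLIT genes in vertebrates, which encode secreted ligands of the ROBO receptors in axon guidance and cell migration. miR-218 is known from motor neurons of mouse and chick and, in zebrafish, from the developing heart, where it acts on ROBO receptors. In the RefSeq gene table of assembly GRCg7b, MIR218-1 lies on chromosome 4 within the span of SLIT2 and MIR218-2 on chromosome 13 within that of SLIT3. Their listed lengths are 109 and 95 bases. No source used here names the chicken build behind the deposited values, so no coordinates are printed.

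Levels are deposited normalized reads, which are whole reads multiplied by 1 factor per library. Hairpin reads per library ran from 49276 to 82211 in knockdown GFP+ cells and from 277633 to 435716 in knockdown GFP− cells. They ran from 1292 to 3856 in overexpression GFP+ cells and from 7546 to 277637 in overexpression GFP− cells. Within each arm every GFP+ library was thus shallower than every GFP− library, so depth and GFP status cannot be told apart. A floor of 3 reads stood for 20.1, 73.1 and 47.6 normalized reads in overexpression GFP+ replicates 1, 2 and 3, and for at most 11.7 in the other libraries. A list of miRNAs of early embryos held the targeted miR-302 and also miR-367. It summed to between 11880 and 17880 in knockdown GFP+ and between 17800 and 22240 in knockdown GFP− libraries. It summed to between 4010 and 8458 in overexpression GFP+ and between 6193 and 17950 in overexpression GFP− libraries. These sums are of chicken-aligned rows only, and the human-aligned rows of miR-302 were not examined. Whether human miR-302 was raised in the overexpression arm was not tested.

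miR-218 was lower in GFP+ than in GFP− cells of both arms. In sorted bulk cells, fewer cells that hold miR-218 and less miR-218 per cell cannot be told apart. In knockdown GFP+ cells gga-mir-218-1 stood at 69.3, 119 and 99.8 normalized reads in replicates 1, 2 and 3, and in knockdown GFP− cells at 221, 225 and 151. Every GFP+ value lay below every GFP− value, and GFP− replicate 3 was the lowest of its group. The second hairpin, gga-mir-218-2, had 76.2, 134 and 115 normalized reads in knockdown GFP+ cells and 236, 254 and 163 in knockdown GFP− cells. It showed the same order of libraries as gga-mir-218-1, with replicate 1 lowest in GFP+ cells and replicate 3 lowest in GFP− cells.

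In overexpression GFP+ cells gga-mir-218-1 had 100.3, 24.4 and 47.6 normalized reads in replicates 1, 2 and 3, against 203, 207 and 224 in overexpression GFP− cells. The GFP+ values rest on 15, 1 and 3 reads, and the GFP− values on 52, 253 and 1564 reads. gga-mir-218-2 had 66.8, 24.4 and 63.4 normalized reads in overexpression GFP+ cells, from 10, 1 and 4 reads, and 281, 224 and 257 in overexpression GFP− cells. For both hairpins all overexpression GFP+ libraries lay below all overexpression GFP− libraries.

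**Figure D1:**
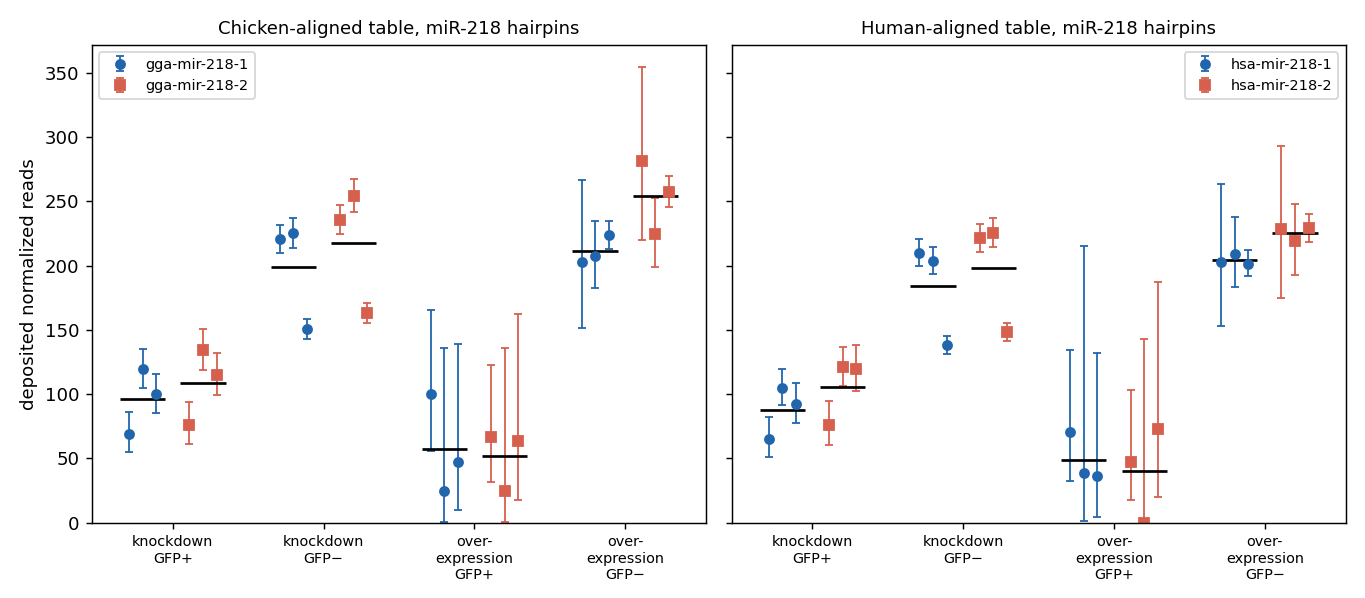
Deposited normalized reads (vertical axis) of the miR-218 hairpins in each library of the 4 groups, in the chicken-aligned table (left) and the human-aligned table (right). Points are libraries in the order of replicates 1 to 3, bars are exact 95% Poisson intervals of the read count, and black lines are group means; the GFP+ points of each arm lie below its GFP− points.

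Both hairpins were then summed, which gives the miR-218 level used below. The sum was 205 ± 54.7 normalized reads (SD, n = 3) in knockdown GFP+ cells and 417 ± 89.7 (n = 3) in knockdown GFP− cells, a ratio of 0.491. On the log2(value + 1) scale the difference was −1.03 with a standard error of 0.30. The highest knockdown GFP+ library, at 254, was below the lowest GFP− library, at 314. Among the 132 tested hairpins, which averaged 10 normalized reads or more, 26.5% had every knockdown GFP+ library below every knockdown GFP− library. The median log2 difference of all tested hairpins was −0.17, against which the miR-218 sum stood −0.86 apart, and 13 of them had a lower log2 difference.

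In the overexpression arm the sum was 109 ± 59.2 normalized reads (SD, n = 3) in GFP+ and 466 ± 29.5 (n = 3) in GFP− cells, a ratio of 0.234. The log2 difference was −2.25 with a standard error of 0.52. The highest GFP+ library stood at 167 and the lowest GFP− library at 432. Of all tested hairpins, 22% had every overexpression GFP+ library below every overexpression GFP− library, and their median log2 difference was −0.67, which leaves −1.59 for the miR-218 sum. Of them, 25 had a lower log2 difference than miR-218. Because the contrasts were in view when miR-218 was picked, nothing is read from its place among the other hairpins.

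Libraries with the same replicate number gave the same direction in all 6 pairs. The share of all tested hairpins that were lower in all 6 pairs was not counted. It is at least 9.85%, the share with every GFP+ library of both arms below every GFP− library. The GFP+ to GFP− ratios of the sum were 0.319, 0.529 and 0.684 in knockdown pairs 1, 2 and 3. They were 0.345, 0.113 and 0.231 in the overexpression pairs. The ratio was thus closest to 1 in knockdown pair 3, whose GFP− library was the lowest of its group, and farthest from it in overexpression pair 2, whose GFP+ library was the shallowest of all.

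The overexpression GFP+ level rests on few reads. Its 3 libraries held 25, 2 and 7 miR-218 reads, 34 in all, with an exact 95% Poisson interval of 23.5 to 47.5. At the mean overexpression GFP− level the same libraries would have held 118 reads. In replicate 2 alone, 2 reads were seen (interval 0.242 to 7.22) where the level of its GFP− partner would have given 17.7. These intervals cover counting error only, since no source states that reads were collapsed to independent molecules. They would be too narrow if reads had been counted on both hairpin rows, which no source used here settles. The knockdown GFP+ libraries held 168, 533 and 385 miR-218 reads.

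Ordered by the mean of the sum, overexpression GFP− cells were highest, followed by knockdown GFP−, knockdown GFP+ and overexpression GFP+ cells. The neighbours at each end of this order did not separate. The overexpression GFP− libraries spanned 432 to 484 normalized reads and the knockdown GFP− libraries 314 to 479, with a log2 difference between arms of 0.18 and a standard error of 0.20. This difference was −0.01 without knockdown GFP− replicate 3 and 0.30 without knockdown GFP− replicate 2, and −0.13 with a TMM scaling over all hairpins. The knockdown GFP+ libraries spanned 146 to 254 and the overexpression GFP+ libraries 48.7 to 167, so they overlapped as well. Of the neighbours in this order, knockdown GFP− and knockdown GFP+ cells were the pair without overlap.

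The spread within groups differed. The 3 overexpression GFP− libraries had overlapping counting intervals, at 484 (95% Poisson interval 403 to 578), 432 (396 to 470) and 481 (465 to 497) normalized reads, at depths of 7546, 52653 and 277637 hairpin reads. In knockdown GFP− cells replicate 3 stood at 314 (303 to 325), below replicate 1 at 456 (441 to 472) and replicate 2 at 479 (463 to 497), a gap wider than the counting intervals. In knockdown GFP+ cells replicate 1 stood at 146 (124.4 to 169), below replicate 2 at 254 (232 to 276) and replicate 3 at 214.7 (193.8 to 237).

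As a percent of all hairpin reads of a library, miR-218 took 0.489 ± 0.154% (SD, n = 3) in knockdown GFP+ and 0.935 ± 0.193% in knockdown GFP− cells. It took 0.398 ± 0.247% in overexpression GFP+ and 1.29 ± 0.327% in overexpression GFP− cells. By this measure, too, the groups of each arm did not overlap, with a highest GFP+ share of 0.648% in either arm and lowest GFP− shares of 0.721% and 1.0%. How many of all tested hairpins did not overlap by this measure was not counted.

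The hairpins can share reads. The table lists mature arms as well as hairpins, but no mature arm was above 0, so the arms of miR-218 could not be told apart. No source used here says how reads that match both hairpins were assigned, and a read counted on both rows would enter the sum 2 times. Poisson intervals of the sum would then be too narrow, and the Wilson intervals of the share below would not hold. Of the 14531 reads on both rows over the 12 libraries, 6889 (47.4%) were on gga-mir-218-1 and 7642 on gga-mir-218-2. gga-mir-218-1 had fewer reads than gga-mir-218-2 in 10 libraries, an equal number in 1 and more in 1. In the 9 libraries with at least 100 such reads its share ran from 41.9% to 48.4%, and the 95% Wilson interval held 50% in 6 of them. The intervals below 50% were those of knockdown GFP− replicate 2 (45.2 to 48.7%), knockdown GFP− replicate 3 (46.3 to 49.8%) and overexpression GFP− replicate 3 (44.8 to 48.2%). In the knockdown arm the share ran from 46.5% to 47.6% in GFP+ and from 46.9% to 48.4% in GFP− libraries, and these ranges overlapped, unlike those of the level.

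**Figure D2:**
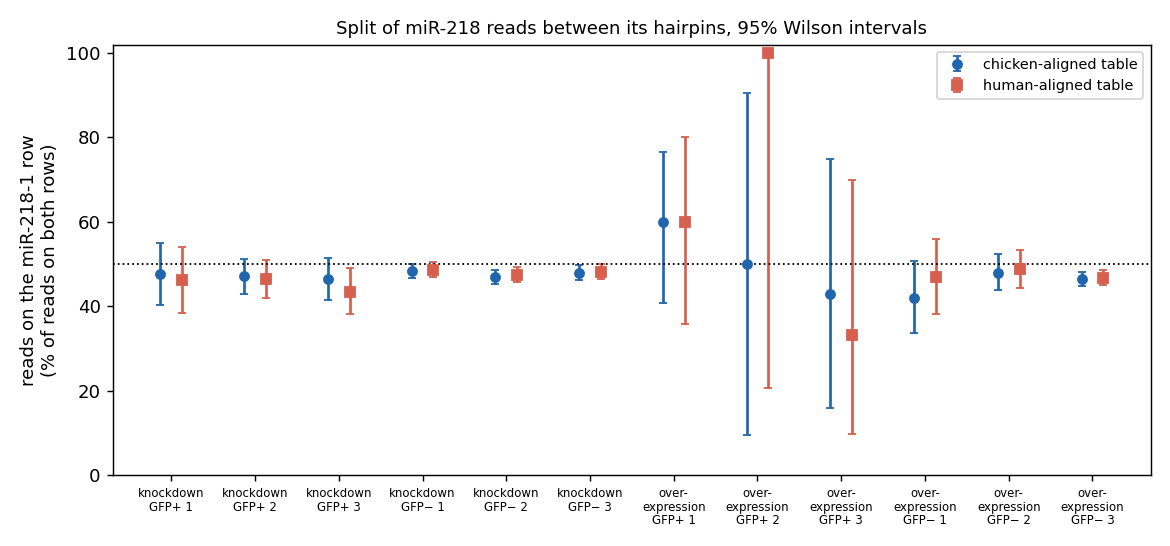
Percent of the miR-218 reads of each library that were on the miR-218-1 row (vertical axis), in the chicken-aligned (circles) and human-aligned (squares) tables, with 95% Wilson intervals and a dotted line at 50%. The wide intervals are those of the overexpression GFP+ libraries, which held 25, 2 and 7 reads in the chicken-aligned table; elsewhere the shares lie between 41.9% and 48.8%.

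The human-aligned rows gave the same picture from the same libraries, and are no independent evidence. The sum of hsa-mir-218-1 and hsa-mir-218-2 stood at 141.7, 226 and 212 normalized reads in knockdown GFP+ and at 432, 429 and 286 in knockdown GFP− cells. It stood at 118, 38.7 and 110 in overexpression GFP+ and at 431, 428 and 431 in overexpression GFP− cells. As in the chicken-aligned table, GFP+ and GFP− cells did not overlap in either arm, with log2 differences of −0.99 and −2.42. How many of all human-aligned hairpins did not overlap was not counted. In overexpression GFP+ replicate 2, hsa-mir-218-1 had 1 read and hsa-mir-218-2 none, where the floor of 3 reads stands for 116 normalized reads and the exact 95% Poisson upper limit of 0 reads for 142.6. In the 9 libraries with at least 100 chicken-aligned miR-218 reads, the human-aligned table held 0.823 to 1.02 times as many. In the 3 libraries with fewer, those of overexpression GFP+ cells, it held 0.5 to 0.857 times as many. hsa-mir-218-1 took 47.7% of the 14257 reads on both human rows. The human names refer to the reference used for alignment and say nothing of where a read came from.

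miR-218 was next set beside other miRNAs known from neural tissue, in a list that leaves miR-218 out and holds the families of miR-124, miR-9, miR-7, miR-219, miR-153, miR-137 and miR-128. Of its 20 entries 11 were abundant enough to test, and 3 (gga-mir-9b-1, gga-mir-9b-2 and gga-mir-219a) were at 0 in all libraries. In the knockdown arm limma called 14 hairpins (10.6% of those tested, 9.85% higher and 0.758% lower in GFP+ cells) at a Benjamini-Hochberg adjusted p under 0.05, and 0 of the 11 were among them. In the overexpression arm it called 25 (18.9%, with 9.09% higher and 9.85% lower, or 11 higher and 31 lower with TMM over all hairpins), again with 0 of the 11. At an unadjusted p under 0.05 the neural list had 1 of 11 hairpins in the knockdown arm, gga-mir-124a-2, where limma had 22.7% of all tested hairpins. The list had 0 of 11 in the overexpression arm, where limma had 38.6% of all tested hairpins. edgeR and DESeq2 each called 22% of all tested hairpins in the overexpression arm and 0 of the 11, although DESeq2 gave no adjusted p for gga-mir-153 and gga-mir-7b. In the knockdown arm edgeR called 18.9% of all tested hairpins (15.9% higher) and DESeq2 27.3% (17.4% higher), and both called gga-mir-124a-2 higher in GFP+ cells.

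The median log2 difference of the 11 neural hairpins was 0.09 in the knockdown and 0.14 in the overexpression arm, against −0.17 and −0.67 over all tested hairpins. The summed list ran from 712 to 1042 normalized reads in knockdown GFP+ and from 795 to 893 in knockdown GFP− libraries. It ran from 512 to 745 in overexpression GFP+ and from 468 to 692 in overexpression GFP− libraries. The GFP+ and GFP− ranges of this sum overlapped in both arms, whereas those of miR-218 did not. gga-mir-124a-2, of the neuronal miR-124 and named after its values were seen, had 33.9 ± 10.2 normalized reads (SD, n = 3) in knockdown GFP+ and 9.42 ± 1.46 in knockdown GFP− cells (limma adjusted p = 0.175, range over the settings 0.0002 to 0.417). Its groups did not overlap, and 21.2% of all tested hairpins were higher in every knockdown GFP+ than in every knockdown GFP− library. gga-mir-7-3 lay the other way without overlap, at 99.3 ± 7.0 normalized reads in knockdown GFP+ and 113 ± 6.1 in knockdown GFP− cells. Of all tested hairpins, 26.5% did so. In the overexpression arm gga-mir-9-3, named after its values were seen, was higher in GFP+ cells without overlap (45.5 ± 4.7 against 36.4 ± 2.9), as were 12.9% of all tested hairpins.

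gga-mir-128-2, from a family of neuronal miRNAs, had 180 ± 36.3 normalized reads (SD, n = 3) in knockdown GFP+ and 170 ± 37.2 in knockdown GFP− cells (log2 difference 0.09, SE 0.30, limma adjusted p = 0.982). In the overexpression arm it had 139 ± 16.2 against 112 ± 24.7 (0.33, limma adjusted p = 0.43). Its copy gga-mir-128-1 had log2 differences of −0.02 and −0.17. gga-mir-7-1, whose family is known from neural and endocrine cells, had 127 ± 22.8 against 141 ± 7.0 normalized reads in the knockdown arm and 75.6 ± 50.1 against 105 ± 33.6 in the overexpression arm (limma adjusted p = 0.982 and 0.325). Its overexpression GFP+ level rests on 4, 3 and 8 reads in replicates 1, 2 and 3. gga-mir-7-3 had log2 differences of −0.19 and −1.03 and was called in the overexpression arm without GFP+ replicate 3 (limma adjusted p = 0.00422, against 0.158 with all libraries and up to 0.38 in the other settings). gga-mir-153, named after its values were seen, had a log2 difference of −1.84 there (limma adjusted p = 0.257) and was called without GFP+ replicate 1 (0.00482), in a range over the settings of 0.00482 to 0.81. In each arm 5 of the 11 neural hairpins had a log2 difference below 0. Whether the GFP effect of miR-218 differed from that of these hairpins was not tested.

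Muscle and cardiac miRNAs were examined because miR-218 is also known from the heart. Of 10 entries (of the miR-1, miR-133, miR-206 and miR-499 families) 3 were tested, none was at 0 in all libraries, and limma called 0 of the 3 in either arm, with 0 (knockdown) and 3 (overexpression) at an unadjusted p under 0.05, beside the 22.7% and 38.6% of all tested hairpins given above. edgeR and DESeq2 each called 2 of the 3 lower in GFP+ cells in both arms, namely the copies gga-mir-1a-1 and -2. Of all tested hairpins, edgeR called 3.03% and DESeq2 9.85% lower in the knockdown arm, and each called 12.1% lower in the overexpression arm. DESeq2 gave no adjusted p for gga-mir-206 there. The summed level was 71.0 to 165 normalized reads in knockdown GFP+ against 250 to 688 in knockdown GFP− libraries, and 24.4 to 190 against 266 to 1067 in the overexpression arm. GFP+ libraries were thus below GFP− libraries in both arms, as for miR-218. Each on its own, 26.5% (knockdown) and 22% (overexpression) of all tested hairpins were lower in this way. In knockdown GFP− cells gga-mir-1a-1 averaged 264 normalized reads and its copy 228, of a list mean of 526. In overexpression GFP− cells these means were 270, 230 and 536. The sum thus mostly follows these copies, which can share reads, and does not stand for the list as a whole.

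gga-mir-1a-1, of the muscle miRNA miR-1, had 45.2 ± 20.6 against 264 ± 125.5 normalized reads in the knockdown arm (log2 difference −2.47, SE 1.36, limma adjusted p = 0.37, range over the settings 0.000627 to 0.692). In the overexpression arm it had 44.2 ± 40.4 against 270 ± 235 (−3.71, SE 1.36, limma adjusted p = 0.0686, range 0.00779 to 0.233). Its GFP+ level there rests on 8, 0 and 5 reads in replicates 1, 2 and 3. gga-mir-1a-2, a similar copy that can share its reads, had log2 differences of −2.40 and −3.90 with limma adjusted p values of 0.363 and 0.0503. With the replicate block limma called both copies in the overexpression arm (adjusted p = 0.018 and 0.0126), where it called 15.9% of all tested hairpins lower. gga-mir-206, a skeletal muscle miRNA, had 24.96 ± 7.4 normalized reads in knockdown GFP+ and 14.04 ± 7.3 in knockdown GFP− cells, and these groups overlapped (limma adjusted p = 0.739). It had no read in overexpression GFP+ cells and a level of 7.18 ± 6.6 normalized reads in overexpression GFP− cells, a mean below what 3 reads stand for in each of those GFP+ libraries (limma adjusted p = 0.0879, and 0.00423 without GFP− replicate 1, the lowest over the settings, which reached 0.276).

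The blood and endothelium list had 6 entries, of which gga-mir-155 was at 0 and the endothelial gga-mir-126 alone was abundant enough to test. gga-mir-126 had 48.4 ± 13.6 against 129 ± 30.4 normalized reads in the knockdown arm (log2 difference −1.41, SE 0.44, limma adjusted p = 0.0751). edgeR and DESeq2 called it there (adjusted p = 0.0261 and 0.000798), where they called 3.03% and 9.85% of all tested hairpins lower. The replicate block did not call it, and the adjusted p over the settings ranged from 0.000798 to 0.262. The level of gga-mir-126 fell by 3.19 on the log2 scale in GFP+ cells of the overexpression arm, to 43.9 ± 25.5 from 379 ± 103 (SE 0.44, limma adjusted p = 0.000687). That GFP+ level rests on 4, 3 and 2 reads in replicates 1, 2 and 3, near the floor of 3 reads. The whole list summed to 56.9 to 93.6 against 107 to 168 normalized reads in the knockdown arm, and to 33.4 to 97.5 against 314 to 471 in the overexpression arm. As for miR-218, these ranges did not overlap in either arm. Taken singly, 26.5% (knockdown) and 22% (overexpression) of all tested hairpins were lower without overlap. In GFP− cells gga-mir-126 made up 129 of a list mean of 139 normalized reads (knockdown) and 379 of 401 (overexpression). In GFP+ cells it made up 48.4 of 78.4 and 43.9 of 70.1. By these means the other entries together were not lower in GFP+ cells, so the fall of the sum is that of gga-mir-126.

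The endoderm and liver list went the other way. Of its 8 entries 3 were tested and 3 (gga-mir-122b, gga-mir-122b-1 and gga-mir-122b-2) were at 0. Of the 3 tested, limma called 3 higher in GFP+ cells of the knockdown and 2 in those of the overexpression arm. It called 9.85% and 9.09% of all tested hairpins higher in these arms. gga-mir-122-1, the main miRNA of the liver, rose to 2518 ± 344 from 237 ± 163 normalized reads in the knockdown arm (log2 difference 3.62, limma adjusted p = 0.000957). In the overexpression arm it rose to 1115 ± 615 from 79.7 ± 27.9 (3.72, limma adjusted p = 0.000687). The rise of gga-mir-375, known from pancreatic islets, in the knockdown arm (limma adjusted p = 0.0469) was lost with the replicate block (0.131) and without any 1 library of that arm (0.0586 to 0.212). The list summed to 2486 to 3272 against 132.9 to 496 normalized reads in the knockdown arm and to 975 to 1982 against 66.4 to 134 in the overexpression arm. The summed levels of the muscle, endothelium and liver lists moved with GFP status beside the lower miR-218 level, and their part in it was not tested. Not every member moved with its sum. In the muscle list limma called 0 of the 3 tested hairpins in either arm. There gga-mir-206 was higher in knockdown GFP+ cells (24.96 against 14.04 normalized reads), with overlapping groups. In the blood and endothelium list gga-mir-126 alone was tested.

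The mesenchyme list (the miR-214, miR-199, miR-145, miR-143 and miR-140 families) had 8 entries, of which 5 were tested and gga-mir-214b was at 0. In the knockdown arm limma, edgeR and DESeq2 called 0 of the 5, with 0 at an unadjusted p under 0.05, where the shares of all tested hairpins were 10.6%, 18.9% and 27.3% by these tools and 22.7% unadjusted. gga-mir-143, known from smooth muscle, was called lower in GFP+ cells of the overexpression arm (43.5 ± 31.1 against 159 ± 57.3 normalized reads, limma adjusted p = 0.0187). That call was lost without overexpression GFP− replicate 2 (limma adjusted p = 0.0634) or replicate 3 (0.0936). The overexpression GFP+ level of gga-mir-143 rests on 4, 1 and 5 reads in replicates 1, 2 and 3. In that arm limma called 9.85% of all tested hairpins lower. edgeR and DESeq2 called gga-mir-143 lower too, and each called 12.1% of all tested hairpins lower. The other tested members were not called there by these tools. Of them, gga-mir-140 and gga-mir-145 had log2 differences of −0.38 and −1.17, and gga-mir-199-1 and gga-mir-199-2 went the other way (0.58 and 0.32). The list summed to 135 to 201 against 170 to 258 normalized reads in the knockdown arm and to 127 to 317 against 265 to 364 in the overexpression arm, so that GFP+ and GFP− libraries overlapped in both, unlike those of miR-218.

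The early embryo list had 5 hairpins, those of the targeted miR-302 and gga-mir-367, all tested. Of the 5, limma, edgeR and DESeq2 called 0 in the knockdown arm, with 0 at an unadjusted p under 0.05, against the same shares of all tested hairpins. In the overexpression arm limma called gga-mir-302a and gga-mir-367 lower in GFP+ cells, where it called 9.85% of all tested hairpins lower. edgeR called both as well, while DESeq2 called gga-mir-302a but not gga-mir-367 (adjusted p = 0.0986). Each of these tools called 12.1% of all tested hairpins lower there. With the replicate block limma called 4 of the 5 lower, adding gga-mir-302b (adjusted p = 0.00424, against 0.15 without the block) and gga-mir-302d (0.00424, against 0.129). The block called 15.9% of all tested hairpins lower. The call of gga-mir-302a was lost without GFP+ replicate 1 (limma adjusted p = 0.0934), GFP+ replicate 3 (0.0838), GFP− replicate 2 (0.118) or GFP− replicate 3 (0.111). gga-mir-367 had no read in the GFP+ libraries and 19.5 ± 7.0 normalized reads in the GFP− libraries, a mean below what 3 reads stand for in each of those GFP+ libraries.

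**Figure D3:**
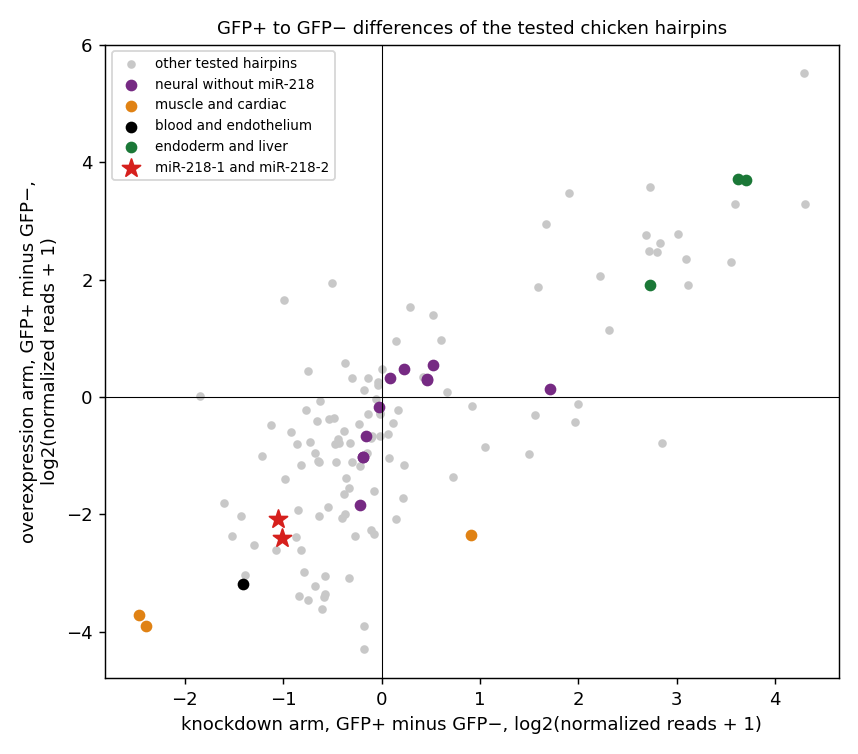
GFP+ minus GFP− difference of log2(normalized reads + 1) for each of the 132 tested chicken hairpins, in the knockdown arm (horizontal axis) and the overexpression arm (vertical axis). Stars mark the miR-218 hairpins, at −1.05 and −2.09 for gga-mir-218-1 and −1.01 and −2.40 for gga-mir-218-2; coloured points mark 4 of the marker lists, and the neural hairpins lie nearer to 0 on the horizontal axis than miR-218, except for gga-mir-124a-2 at 1.71.

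Over both arms together, the highest of the 6 GFP+ libraries had 254 and the lowest of the 6 GFP− libraries 314 normalized reads of miR-218. The 2 miR-218 rows were among 13 of 132 tested hairpins (9.85%) whose 6 GFP+ libraries all lay below their 6 GFP− libraries, while 11 (8.33%) showed the opposite order. The other 11 on the lower side, named here after their values were seen, were gga-mir-126, gga-mir-16c, gga-mir-1a-1, gga-mir-1a-2, gga-mir-20a, gga-mir-20b, gga-mir-222a, gga-mir-24, gga-mir-30d, gga-mir-30e and gga-mir-363. The endothelial gga-mir-126 and the muscle gga-mir-1a copies were thus among them. The muscle gga-mir-206 and the 11 tested hairpins of the neural list were not. As the share over all tested hairpins was 9.85%, their absence is near that share and is not read as a difference between the lists.

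Hairpins whose pattern was most like that of miR-218 were found by the root mean square difference of log2 profiles, each less its own mean, over the 12 libraries. The nearest of the 130 others was gga-mir-363, a relative of miR-92, at 0.54, followed by gga-mir-18a (0.59), gga-mir-24 (0.61), gga-mir-143 (0.66) and gga-mir-26a-2 (0.67). The median over all 130 was 1.27, and the sum of miR-218 itself varied by 1.0 about its own mean. gga-mir-363 had 295 ± 53.9 and 578 ± 61.3 normalized reads (SD, n = 3) in knockdown GFP+ and GFP− cells, and 227 ± 56.9 and 592 ± 119.5 in the overexpression arm. Its GFP+ libraries lay below its GFP− libraries in both arms, as those of miR-218 did. gga-mir-18a had 75.9 ± 22.4 and 124.1 ± 17.4 in the knockdown arm and 79.9 ± 49.7 and 113 ± 18.9 in the overexpression arm, where its groups overlapped. gga-mir-24 had 61.3 ± 3.7 and 90.0 ± 11.4 in the knockdown arm and 30.7 ± 14.8 and 112 ± 37.2 in the overexpression arm. Its GFP+ libraries, too, lay below its GFP− libraries in both arms. In overexpression GFP+ replicates 1, 2 and 3, gga-mir-18a had 18, 1 and 6 reads. There gga-mir-24 had 3, 1 and 3 reads, which is at or below the floor of 3 reads. The hairpins near miR-218 were picked for their values, so no test is given for their likeness to it. gga-mir-143 was tested above as a member of the mesenchyme list, and that test says nothing of its likeness to miR-218. When the 6 knockdown libraries alone were compared, gga-mir-18a was nearest at 0.22 and was the only 1 of the 5 still among the first 5. There it was followed by gga-mir-103-2 (0.28), gga-mir-130b (0.29), gga-mir-130a (0.29) and gga-mir-16c (0.30).

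**Figure D4:**
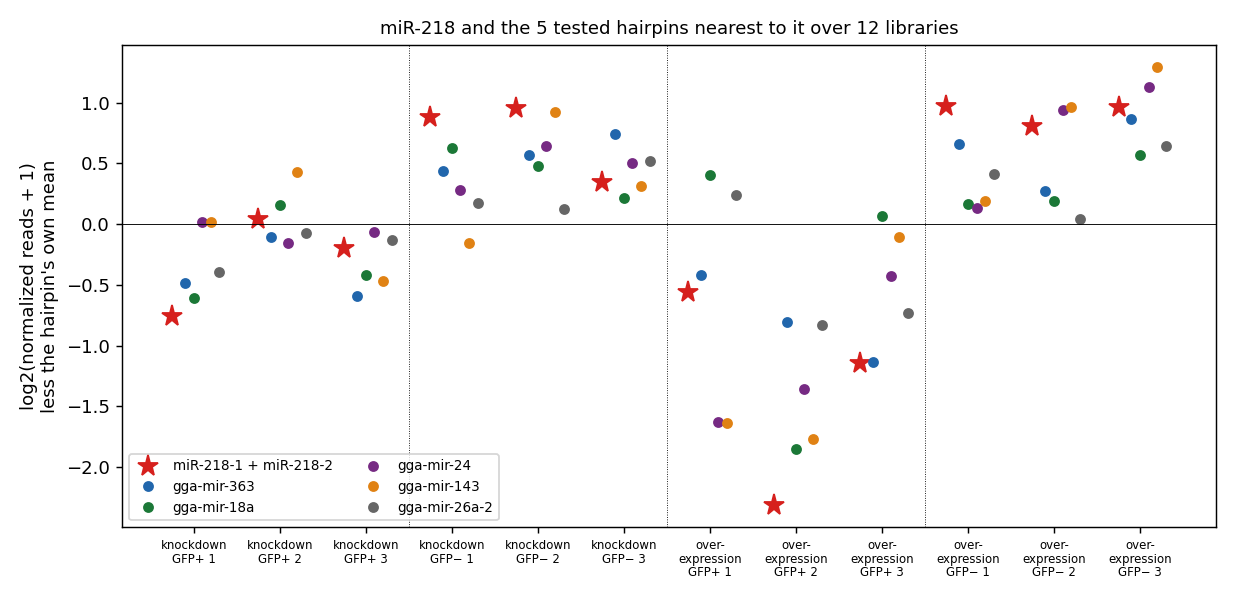
log2(normalized reads + 1) less each hairpin's own mean over the 12 libraries (vertical axis), for the sum of the miR-218 hairpins (stars) and the 5 nearest tested hairpins (circles), by library. miR-218, gga-mir-363 and gga-mir-24 lie lower in the GFP+ than in the GFP− libraries of each arm. The lowest point of miR-218 is overexpression GFP+ replicate 2, which rests on 2 reads.

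Between arms, the GFP− cells were compared to see whether the level of miR-218 in sorted neighbours differed by construct. gga-mir-218-1 stood at 211 ± 10.8 (SD, n = 3) in overexpression and 198.9 ± 41.7 in knockdown GFP− cells, and gga-mir-218-2 at 254 ± 28.6 and 218 ± 48.2 normalized reads. The libraries of the arms overlapped for both hairpins, while 9.09% of the tested hairpins were higher and 6.82% lower in every overexpression than in every knockdown GFP− library. limma called 0 of 132 hairpins in this comparison (0%), with 10 (7.58%) at an unadjusted p under 0.05, edgeR called 0 and DESeq2 8 (6.06%). The DESeq2 calls held gga-mir-126, at 379 ± 103 in overexpression and 129 ± 30.4 in knockdown GFP− cells (DESeq2 adjusted p = 0.000688). They also held gga-mir-122-1, at 79.7 ± 27.9 and 237 ± 163 (0.0491). For both, the limma adjusted p was 0.547. The comparison uses the same GFP− libraries as the comparisons within each arm.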

How the data were processed

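The authors deposited 2 tables of the same 12 small RNA libraries, 1 aligned to chicken and 1 to human hairpins. The deposited signal per hairpin had been normalized by the authors with 1 factor per library, as found from the values. STAR 2.7.0f, cutadapt, FastQC 0.11.5 and the build hg38 are named, with no order, per the submitters' processing notes. No source used here gives the counting tool or the normalization. All values above 0 were whole multiples of 1 step per library (tolerance 0.001 reads), so whole reads were recovered. The deposited divisors were 0.979 to 1.01 times DESeq2 size factors recomputed from those reads. Repeated hairpin names (61 chicken, 5 human) were dropped after the first entry. Of the chicken names, 780 of 850 matched RefSeq genes.

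The 132 hairpins that averaged 10 normalized reads or more were fitted with limma 3.58.1 (R 4.3.3) on log2(value + 1), with 4 group means, a trend, two-sided tests and Benjamini-Hochberg adjustment. edgeR 4.0.16 (quasi-likelihood) and DESeq2 1.42.0 on recovered reads, a pseudocount of 5, TMM scaling, no filter, a replicate block and leaving out each library were alternatives. Ranges of the adjusted p over the settings leave out the fit with no filter and TMM over all hairpins. DESeq2 gave no adjusted p for 2 tested hairpins in the knockdown and 13 in the overexpression arm, which are in no count of its calls. The fits were also run on simulated data with the same dispersion for all hairpins. The spread of the real hairpins differed between them, so that run does not show how well the fits do here. Same-number GFP+ and GFP− libraries deviated together weakly from their group means. Across hairpins r was 0.15, 0.379 and 0.144 in the knockdown and 0.207, 0.324 and 0.111 in the overexpression arm. For libraries of unlike number r ran from −0.284 to 0.192 in the knockdown and from −0.389 to 0.113 in the overexpression arm. Labels do not say whether same-number libraries share embryos. They were taken as pairs in the pair ratios and the replicate block, and the main fits were unpaired. The members and lists were chosen with earlier results of these data known. Named were the miR-218 rows, the 5 nearest hairpins, and the 4 tested hairpins of highest mean in each of the lists, or fewer where fewer were tested. Fold changes on the log2(value + 1) scale can understate or overstate those of low hairpins. In the overexpression arm gga-mir-1a-1, with 0 reads in GFP+ replicate 2, had −3.71 with limma, −2.39 with edgeR and −2.47 with DESeq2. gga-mir-367, with no read in those GFP+ libraries, had −4.30 with limma and −2.81 with DESeq2.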

Additional observations from a re-analysis of the deposited data

How the results depend on the processing

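The miR-218 sum was lower in GFP+ than in GFP− cells under every alternative run. The log2 difference ranged from −1.23 to −0.81 in the knockdown arm and from −2.64 to −1.76 in the overexpression arm when 1 library was left out. It was −0.92 and −2.10 as the median of the replicate pairs (replicate block), −0.87 and −2.25 with TMM scaling, and −1.17 and −2.71 with TMM over all hairpins, a setting chosen after seeing the data. Between the GFP− cells of the arms the difference was 0.18, from −0.01 to 0.30 with 1 library left out, 0.45 as a percent of hairpin reads and −0.13 with TMM over all hairpins. The cause was not tested.

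The median of all tested hairpins moved from −0.17 to −0.02 (TMM) or −0.30 (TMM over all hairpins) in the knockdown arm, and from −0.67 to −0.66 or −1.09 in the overexpression arm. The 14 calls of the knockdown arm (13 higher, 1 lower) were 25 with edgeR (21 and 4), 36 with DESeq2 (23 and 13), 11 with the replicate block and 7 to 10 with 1 library left out. The 25 calls of the overexpression arm (12 and 13) were 33 with the replicate block, 42 with TMM over all hairpins (11 and 31) and 15 to 42 with 1 library left out (42 without GFP+ replicate 1, 15 without GFP− replicate 3). Between GFP− cells DESeq2 called 8 and limma 0, also with 1 library left out. Of the 5 hairpins nearest to miR-218, 1 was kept in the 6 knockdown libraries and 2 with a pseudocount of 5. The 95% interval of overexpression GFP+ replicate 2 allows 5.90 to 176 normalized reads of miR-218.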
